A study of Mus musculus with 6 samples.

Results

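The genes of iron storage, uptake and export described here are *Ftl1*, *Fth1*, *Hmox1*, *Blvrb*, *Slc40a1*, *Slc11a1*, *Slc11a2*, *Slc48a1*, *Trf* and *Tfrc*, which are 10 of the 17854 genes measured. They were chosen by name with their read counts in the comparison of the 2 groups in view, so their values in that comparison are given as a description, without a test. The study asked which mesenchymal stromal cells (MSCs) repair cartilage when injected into an arthritic knee, and its bulk RNA sequencing compared injected cells recovered from the joint with the cells that normally occupy it. Cells were marked with tdTomato, a red fluorescent protein switched on by Cre recombinase under control of *Prrx1*, which is active in early limb mesenchyme. The mark passes to all descendants of a cell that once had Cre activity, and so records lineage rather than present cell type. Expression was measured in 6 libraries, 3 per group, and each group came from 3 mice per the study's methods. The methods do not say whether each library held the cells of a single mouse.

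The MSC-derived libraries were made from Tomato+ cells sorted from the repaired articular cartilage of male C57BL/6 mice with knee osteoarthritis after transection of the anterior cruciate ligament. These hosts had received, by injection into the joint, freshly sorted Tomato+ MSCs from the inguinal white adipose tissue of Prrx1-Cre; R26 tdTomato donors. The endogenous libraries were made from Tomato+ cells of the articular cartilage of Prrx1-Cre; R26 tdTomato mice, also on a C57BL/6 background and matched to the hosts for age and sex. In these mice the Cre allele and the reporter are in every cell of the body. The age at which the joints were taken for sequencing is not given in the sources used here. The groups therefore differed in the origin of the cells, in surgery and disease of the joint and in the injection, and these cannot be told apart in the comparison. Knee cartilage was digested with collagenase and the Tomato+ fraction was sorted, with no step named that depletes blood cells.

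Iron enters most cells bound to transferrin, is released in endosomes, and is either used, stored inside ferritin shells or exported by ferroportin. Macrophages that take up aged red blood cells handle iron differently: they free it from heme with heme oxygenase and return it to the plasma, which makes ferritin, heme oxygenase and ferroportin abundant in them. Part of this control acts on RNA. Iron regulatory proteins bind a hairpin called the iron-responsive element (IRE), and block translation when it lies in the 5′ UTR or protect the transcript from decay when it lies in the 3′ UTR.

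The members in which a search found such hairpins are shown first. Only the abundance of their transcripts was measured here, and iron also sets how much of them is translated or kept. A search of GENCODE M21 transcripts (GRCm38) for a C, 5 bases, the loop CAGTGN and 5 bases that pair with the first 5 found a hairpin with at least 4 of 5 further pairs in the lower stem in the UTRs of 4 members. It read the transcribed strand only and allowed G-T pairs. Across all 21877 genes searched, 158 (0.722%) had a match in a UTR and 17 (0.0777%) also had the paired lower stem. The stretches below are 27 bases long, 5′ to 3′ on the transcribed strand, with the loop in capitals. They lie in the 5′ UTR of *Fth1* (transcript Fth1-201, chr19:9982733-9982759, plus strand), of *Ftl1* (Ftl1-201, chr7:45459780-45459806, minus strand) and of *Slc40a1* (Slc40a1-201, chr1:45925466-45925492, minus strand). In *Tfrc* (Tfrc-201, plus strand) 4 copies lie in the 3′ UTR, at chr16:32631220-32631246, chr16:32631599-32631625, chr16:32631664-32631690 and chr16:32631711-32631737.
Fth1 5′ UTR: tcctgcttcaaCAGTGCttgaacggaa
Ftl1 5′ UTR: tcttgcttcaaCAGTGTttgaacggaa
Slc40a1 5′ UTR: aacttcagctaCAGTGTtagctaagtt
Tfrc 3′ UTR copy 1: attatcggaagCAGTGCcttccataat
Tfrc 3′ UTR copy 2: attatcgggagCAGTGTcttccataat
Tfrc 3′ UTR copy 3: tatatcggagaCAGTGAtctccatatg
Tfrc 3′ UTR copy 4: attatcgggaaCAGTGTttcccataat
No match with these letters was found in the UTRs of the other 6 members, *Slc11a2* among them. This says nothing of hairpins of another shape, so it does not show that these members lack an IRE. In the members with a hairpin found in the 5′ UTR, iron can release translation, and protein was not measured.

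Depth did not separate the groups, since the summed counts of a library were between 22060628 and 24559959 for MSC-derived cells and between 23441005 and 24881796 for endogenous cells. Endogenous replicate 1 stood apart from the others of its group, with 3459 genes at 0 counts against 1338 and 1395. Without it the log2 fold changes of the 10 iron genes moved by between -0.23 (*Blvrb*) and 0.16 (*Tfrc*). Calls that changed without it are named with the gene. The p-values given for genes other than the members measure only the spread between these libraries. By Spearman correlation of expression, the MSC-derived libraries stood at 0.995 to each other. Endogenous replicates 2 and 3 did so too, and replicate 1 stood at 0.955 and 0.957 to them. Because a library may not be a single mouse, standard errors and p-values need not measure the spread between mice.

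Before the iron genes, the labels were set beside cell type markers, with levels in TPM, a measure of transcript abundance that allows for gene length and sums to the same total in every library. The marker lists were drawn up with earlier results of these data known, so their calls are not an independent check. The deposited labels call both groups chondrocytes, and the defining markers went against this for the MSC-derived libraries and left it in doubt for the endogenous ones. By edgeR's quasi-likelihood test, all 12 chondrocyte markers on the list fell. Their summed level was 472 to 491 TPM in the MSC-derived libraries and 27550 to 28130 TPM in the endogenous libraries, and none was at 0. Transcripts of *Comp* (283 to 292 TPM) and *Col2a1* (118 to 126 TPM) remained in the MSC-derived libraries. By immunostaining, the study saw Col2α1 protein in most injected Tomato+ cells at the cartilage surface. All 10 osteoblast markers fell too, from 70410 to 92010 TPM in endogenous libraries to 882 to 921 TPM, with *Phex* at 0 TPM in MSC-derived replicate 1. In the endogenous libraries the osteoblast markers thus summed to more than the chondrocyte markers, and *Bglap*, which encodes the bone matrix protein osteocalcin, was number 1 or 2 of all genes by TPM. Markers of blood-derived cells went the other way. All 8 leukocyte markers were higher, at 12990 to 13550 TPM against 450 to 638 TPM.

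All 10 macrophage markers were higher, at 26110 to 26900 TPM in MSC-derived and 745 to 951 TPM in endogenous libraries. A large part of both sums was *Lyz2* alone, at 11798 to 12289 TPM and 622 to 762 TPM. Macrophages of the splenic red pulp recycle the iron of red blood cells. Of their 6 markers 5 were higher and *C6* lower, with a sum of 6398 to 6550 TPM compared with 233 to 293 TPM. Most of the endogenous sum was *Vcam1*, at 213 to 270 TPM, and *Itgad* was at 0 TPM in endogenous replicate 1. All 12 erythroid markers were higher, at 79790 to 82060 TPM compared with 18310 to 24730 TPM. All 10 neutrophil markers were higher, at 145100 to 153800 TPM compared with 8053 to 11380 TPM. The 10 iron genes themselves summed to 56110 to 57290 TPM and 12340 to 12600 TPM. The part of these cell types in the levels of the iron genes was not tested.

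**Figure D1:**
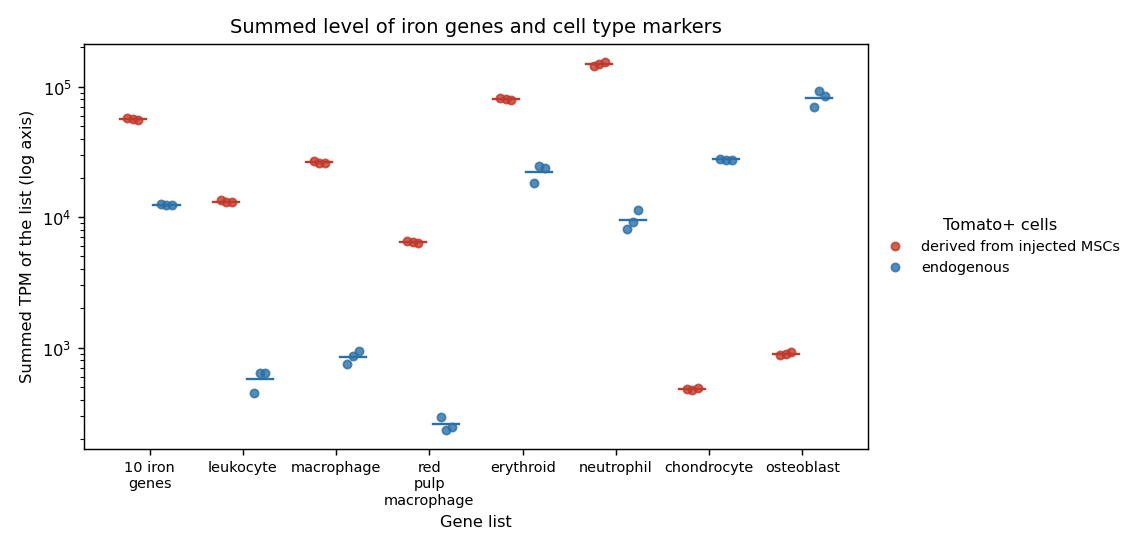
Summed TPM of the 10 iron genes and of each marker list in every library (log axis), with a line at the mean of 3 libraries. Iron genes and the leukocyte, macrophage, red pulp macrophage, erythroid and neutrophil lists lie higher in the MSC-derived libraries, and the chondrocyte and osteoblast lists lie lower.

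Levels of the iron genes are given in TPM, and differences as log2 fold changes of read counts scaled by edgeR's TMM method, MSC-derived over endogenous, with their standard errors (SE, n = 3 libraries per group). By these measures 9 of the 10 members had a positive log2 fold change, and that of *Slc11a2* was -0.07. Among the 14289 genes tested, edgeR's quasi-likelihood test put 4468 (31.3%) past an adjusted p of 0.05 as higher and 4333 (30.3%) as lower. The counts of 9 members, scaled to the library, lay higher in every MSC-derived library than in any endogenous one, which held for 5463 genes (38.2%) of all tested. Because the members were chosen on this contrast, nothing is read from their share. Their median log2 fold change was 2.92, and the median of all genes tested was 0.05. For every member the fold of mean TPM was smaller than the fold of scaled counts. It was 67.8 against 93.2 for *Slc40a1* and 5.90 against 7.95 for *Ftl1*, and folds below are of scaled counts unless TPM is named. In bulk samples, fewer cells of a type and less RNA per cell cannot be told apart, and this applies to every level given here.

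**Figure D2:**
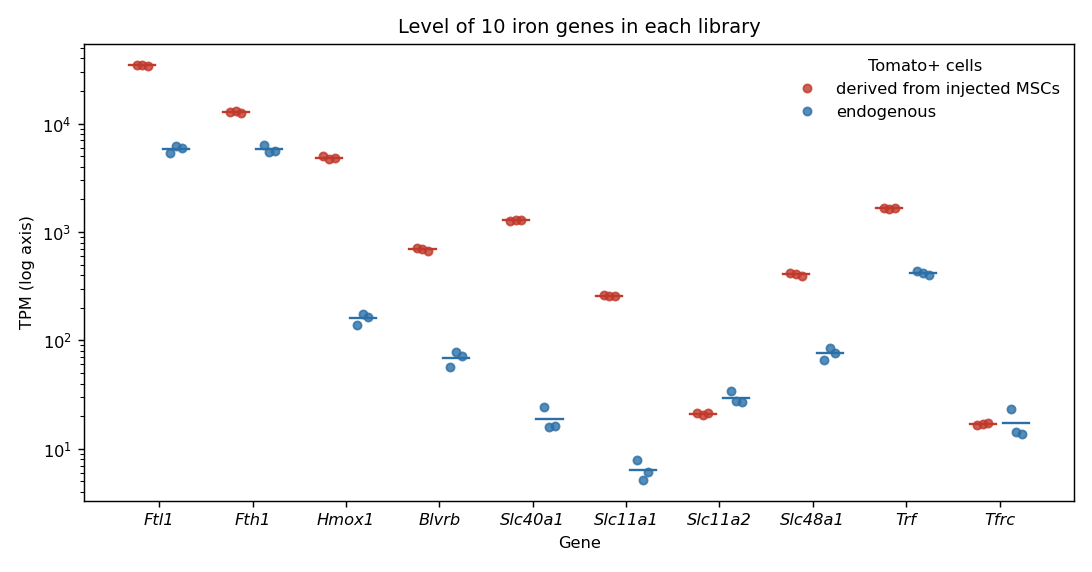
Level of each of the 10 iron genes in TPM (log axis), with 1 point per library and a line at the mean of the 3 libraries of a group. The MSC-derived libraries lie above the endogenous ones for 8 genes, overlap them for *Tfrc* and lie below them for *Slc11a2*.

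Ferritin is a shell of heavy chains, which oxidise iron, and light chains, which help it to mineralise. *Ftl1*, the light chain, stood at 34982, 34471 and 34399 TPM in the 3 MSC-derived libraries, compared with 5400, 6207 and 5986 TPM in the endogenous libraries. The groups were far apart, and the scaled counts differed by 2.99 on the log2 scale (SE 0.11), a fold of 7.95. Ordered by TPM, *Ftl1* was number 2 of all genes in each MSC-derived library and number 14 to 22 in the endogenous ones. *Fth1*, the heavy chain, had 12863, 13079 and 12620 TPM in the MSC-derived libraries and 6407, 5465 and 5581 TPM in the endogenous libraries. It too was separated between the groups, with a log2 fold change of 1.58 (SE 0.05), which is 3-fold.

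The light chain therefore differed by more than the heavy chain. Within a library, *Ftl1* TPM over *Fth1* TPM was 2.72, 2.64 and 2.73 in the MSC-derived cells, and 0.843, 1.14 and 1.07 in the endogenous cells. The chains were thus near parity in endogenous cells, whereas light chain transcripts prevailed in the MSC-derived cells. Both chains together took 2.98% to 3% of all read counts in the MSC-derived libraries and 0.466% to 0.516% in the endogenous libraries. *Ftl1* has processed copies in the genome: *Ftl1-ps2*, which is in the table, held 781 to 906 counts in MSC-derived cells and 115 to 130 in endogenous cells, beside 485216 to 543237 and 50886 to 67052 for *Ftl1*. Reads shared by such copies are divided by estimation, so their split is uncertain.

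Heme is opened by heme oxygenase, which frees iron and leaves biliverdin, and biliverdin reductases then make bilirubin. *Hmox1*, the inducible heme oxygenase, measured 5080, 4766 and 4775 TPM in the MSC-derived libraries but 140, 176 and 164 TPM in the endogenous libraries. The log2 fold change was 5.36 (SE 0.15), or 41.0-fold, and *Hmox1* ranked number 19 or 20 by TPM in MSC-derived cells but number 783 to 1032 in endogenous cells. *Blvrb*, biliverdin reductase B, which also reduces flavins and is abundant in red blood cells, had 713, 702 and 673 TPM in the MSC-derived libraries and 56.7, 78.6 and 71.6 TPM in the endogenous libraries. Its log2 fold change was 3.76 (SE 0.17), smaller than that of *Hmox1*. *Hmox1* TPM over *Blvrb* TPM was accordingly 6.79 to 7.12 in each MSC-derived library and 2.24 to 2.47 in each endogenous library.

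*Slc40a1* encodes ferroportin, the known exporter of iron from cells. Its level was 1261, 1292 and 1286 TPM in the MSC-derived libraries and 24.5, 15.9 and 16.2 TPM in the endogenous libraries. This was the largest difference among the 10 members, with a log2 fold change of 6.54 (SE 0.14) and a fold of 93.2. The endogenous values rested on 693 to 931 counts per library, so the low level was well above the 3 counts taken as the limit of detection. The macrophage markers given above were also higher in these libraries, and their part in the difference was not tested. The TPM rank of *Slc40a1* was 82 to 84 in MSC-derived cells and 4716 to 5650 in endogenous cells.

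Among transporters of the endosome and lysosome, *Slc11a1*, which encodes NRAMP1, a metal transporter of phagosomes in macrophages and neutrophils, was at 262, 257 and 257 TPM in the MSC-derived libraries. In the endogenous libraries it was at 7.90, 5.15 and 6.11 TPM, on 167 to 213 counts. Its log2 fold change of 5.73 (SE 0.11) was second to that of *Slc40a1*. *Slc48a1*, which encodes HRG1, a carrier that moves heme out of the lysosome, was at 418, 408 and 393 TPM compared with 65.7, 85.4 and 76.4 TPM, a log2 fold change of 2.85 (SE 0.15). Both genes were higher in every MSC-derived library.

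*Slc11a2*, which encodes DMT1, the carrier that takes iron out of endosomes after transferrin uptake, did not share this pattern. It was at 21.6, 20.6 and 21.3 TPM in the MSC-derived libraries and 34.1, 27.8 and 26.8 TPM in the endogenous libraries, and so lower on this scale. Its counts per library were nearly equal, 1192 to 1303 in MSC-derived cells and 1196 to 1268 in endogenous cells, with a log2 fold change of -0.07 (SE 0.08). Against the median of all genes it was lower by 0.12 with scaled counts and by 0.18 with log2(TPM + 1), so it stood slightly below that median on both scales. The ratio of *Slc11a1* to *Slc11a2* in TPM was 12.1 to 12.5 in MSC-derived libraries and 0.185 to 0.232 in endogenous libraries, which exchanges the more abundant of these related carriers between the groups.

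*Trf* encodes transferrin, the iron carrier of plasma, made mainly by the liver and also by other cells. It was at 1674, 1628 and 1668 TPM in the MSC-derived libraries and 437, 416 and 400 TPM in the endogenous libraries, a log2 fold change of 2.43 (SE 0.06). The groups were well apart, by 5.39-fold with scaled counts and by 3.965-fold in mean TPM. *Tfrc* encodes transferrin receptor 1, through which most cells take up iron.

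*Tfrc* gave the least settled value. In TPM it stood at 16.5, 17.1 and 17.3 in the MSC-derived libraries and at 23.5, 14.3 and 13.7 in the endogenous libraries, so that endogenous replicate 1 lay above, and the other 2 endogenous libraries below, all 3 MSC-derived ones. With scaled counts its log2 fold change was 0.45 (SE 0.16). Without endogenous replicate 1 it was 0.60, and when any other library was left out it was 0.34 to 0.48. On log2(TPM + 1) it was 0.03, although relative to the median of all genes it stayed above 0 on both scales, by 0.40 and 0.31. With its libraries overlapping in TPM, the difference of *Tfrc* between the groups was not resolved here. *Slc40a1* TPM over *Tfrc* TPM was 74.2 to 76.4 in the MSC-derived cells and 1.04 to 1.18 in the endogenous cells, so the exporter and the receptor were near parity in endogenous cells alone.

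**Figure D3:**
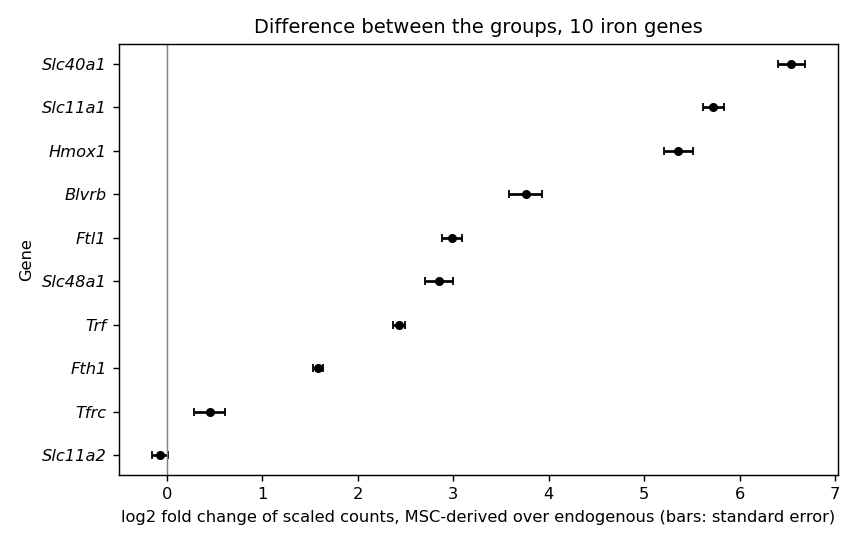
Log2 fold change of scaled counts of the 10 iron genes, MSC-derived over endogenous, with bars of 1 standard error and a grey line at no difference. *Slc40a1* lies highest at 6.54 and *Slc11a2* lowest at -0.07.

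In the order of mean TPM, the MSC-derived cells ran from *Ftl1* (34620 ± 318, SD, n = 3) through *Fth1* (12850 ± 230.0), *Hmox1* (4874 ± 179), *Trf* (1657 ± 24.9), *Slc40a1* (1280 ± 16.3), *Blvrb* (696 ± 20.7), *Slc48a1* (406 ± 12.5) and *Slc11a1* (259 ± 2.93) to *Slc11a2* (21.1 ± 0.524) and *Tfrc* (17.0 ± 0.422). No neighbours in this order overlapped in their libraries. In endogenous cells the order was *Ftl1* (5864 ± 417), *Fth1* (5818 ± 514), *Trf* (418 ± 18.8), *Hmox1* (160.0 ± 18.4), *Slc48a1* (75.9 ± 9.84), *Blvrb* (69.0 ± 11.2), *Slc11a2* (29.6 ± 3.96), *Slc40a1* (18.9 ± 4.91), *Tfrc* (17.2 ± 5.52) and *Slc11a1* (6.39 ± 1.40). There the 2 ferritin chains overlapped, as did *Slc48a1* with *Blvrb* and *Slc40a1* with *Tfrc*. All 10 members together made up 4.31% to 4.36% of the counts of MSC-derived libraries and 0.549% to 0.608% of those of endogenous libraries.

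**Figure D4:**
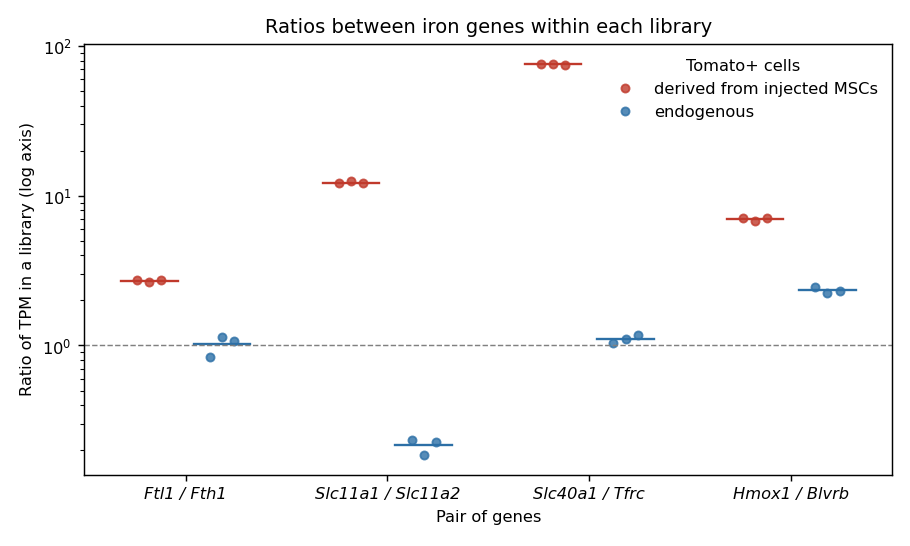
Ratio of 2 iron genes in TPM within each library (log axis), for 4 pairs, with 1 point per library. The ratios of *Slc40a1* to *Tfrc* lie between 74.2 and 76.4 in MSC-derived cells and between 1.04 and 1.18 in endogenous cells, and the other 3 pairs do not overlap between the groups either.

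A list of further iron and heme genes, taken by textbook role and not trimmed by value, puts the members beside the rest of the pathway. It was drawn up with earlier results of these data known. Of 53 symbols listed, 50 were in the table and 45 passed the filter on low counts. With edgeR's quasi-likelihood test, 18 of the 45 (40%) rose and 14 (31.1%) fell in the MSC-derived cells, 13 did not pass, and the median log2 fold change was 0.08. Among all genes tested 31.3% were higher and 30.3% lower, and the genes of the list moved in both directions. *Tfr2*, the second transferrin receptor, had a log2 fold change of 0.08 (SE 0.34, adjusted p = 0.847).

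Of the 4 genes of storage and ferritin turnover, *Ncoa4*, the receptor that delivers ferritin to the lysosome, rose by 2.19 on the log2 scale (SE 0.15, adjusted p = 9.42e-06). It stood at 170, 174 and 170 TPM in the MSC-derived libraries and 68.9, 45.5 and 40.4 TPM in the endogenous libraries. *Scara5*, a receptor for ferritin on stromal cells, fell by 2.82 (SE 0.13, adjusted p = 1.51e-06). The iron chaperones *Pcbp1* and *Pcbp2* did not pass, at -0.08 (SE 0.06, adjusted p = 0.337) and -0.24 (SE 0.09, adjusted p = 0.0543). Without any 1 of the endogenous libraries *Pcbp2* passed as lower, at adjusted p = 0.000346, 0.0292 and 0.0382, and without endogenous replicate 1 *Pcbp1* did as well (adjusted p = 0.0481).

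Uptake and reduction genes were divided, with 3 of 13 higher and 6 lower. *Lcn2*, which encodes lipocalin 2, a binder of bacterial iron carriers released by neutrophils, had the largest increase, 4.21 (SE 0.23, adjusted p = 3.55e-06). *Ltf*, which encodes lactoferrin, a protein of neutrophil granules, rose 16.0-fold (SE 0.09 on the log2 scale, adjusted p = 8.63e-08). Among the lower ones, *Cybrd1*, a reductase of ferric iron, fell by 5.47 (SE 0.51, adjusted p = 6.05e-05), on 214 to 503 counts per endogenous library and 4 to 11 per MSC-derived library, and was at -1.75 on log2(FPKM + 1), where the added 1 weighs on such low levels. *Meltf*, which encodes melanotransferrin, a transferrin relative abundant in cartilage, fell by 4.91 (SE 0.09, adjusted p = 4.90e-08). *Steap4*, *Slc39a14*, *Slc22a17* and *Steap1* were the other 4 that fell, and *Mcoln1* also rose, although the call of *Steap1* ended without MSC-derived replicate 1 or 2 and that of *Mcoln1* on log2(TPM + 1). The values of *Steap2* (-0.10, adjusted p = 0.560), *Steap3* (-0.12, adjusted p = 0.601) and *Slc39a8* (0.01, adjusted p = 0.981) did not pass, and without endogenous replicate 1 *Steap2* (adjusted p = 0.0489) and *Steap3* (adjusted p = 0.000144) did. *Ltf* and *Meltf*, and *Cp* in the next paragraph, were picked for naming after their values were seen.

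The ferroxidases that load exported iron onto transferrin ran opposite to ferroportin. *Cp*, which encodes ceruloplasmin, fell by 3.60 (SE 0.14, adjusted p = 5.81e-07), and *Heph*, which encodes hephaestin, fell by 3.65 (SE 0.44, adjusted p = 0.00024), and was at -1.35 on log2(FPKM + 1). *Hephl1* had at most 2 counts in any library and was not tested. Ferroportin transcripts were thus abundant in the MSC-derived cells beside ceruloplasmin at 6.62 ± 0.873 TPM (SD, n = 3), compared with 109 ± 22.0 TPM in the endogenous cells.

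Of 6 tested genes of iron sensing and hepcidin control, 2 rose and 2 fell. *Hfe*, the hemochromatosis gene, rose by 2.16 (SE 0.13, adjusted p = 5.35e-06). *Aco1*, which encodes iron regulatory protein 1, rose by 0.68 (SE 0.09, adjusted p = 0.000494), but did not pass on log2(TPM + 1). *Ireb2*, which encodes iron regulatory protein 2, was at -0.37 (SE 0.36, adjusted p = 0.401) and did not pass, and without endogenous replicate 1 it was at 0.11 (adjusted p = 0.522). *Fbxl5*, the ligase subunit that removes it in iron-rich cells, was at 0.45 (SE 0.21, adjusted p = 0.10), and without endogenous replicate 1 at 0.71 (adjusted p = 1.88e-09). *Bmp6*, an inducer of hepcidin in liver and a growth factor of cartilage and bone, fell by 3.34 (SE 0.18, adjusted p = 2.75e-06), and *Bmp2* fell as well. *Hamp*, which encodes hepcidin, the hormone that degrades ferroportin, had at most 12 counts, and *Hamp2*, *Hjv* and *Tmprss6* had at most 2, 6 and 4, so none of these was tested.

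Genes of heme and hemoglobin handling gave 4 higher and 3 lower of 10. *Cd163*, the macrophage receptor for hemoglobin bound to haptoglobin, rose by 8.64 (SE 0.23, adjusted p = 1.37e-07), with 7140, 7170 and 6735 counts in the MSC-derived libraries and 8, 18 and 24 in the endogenous libraries. *Blvra*, the other biliverdin reductase, rose by 3.03 (SE 0.16, adjusted p = 3.00e-06), and *Hmox2*, the constitutive heme oxygenase, by 1.46 (SE 0.17, adjusted p = 0.000188). The difference in *Hmox2* was smaller than that in *Hmox1*, whose own values chose it. *Slc46a1* also rose. *Flvcr2* fell by 6.64 (SE 0.33, adjusted p = 2.02e-06), from 759 to 1301 counts in endogenous cells to 9 to 12 in MSC-derived cells, and was at -3.50 on log2(FPKM + 1). *Flvcr1* and *Hp* were at -0.51 and -0.42, past the threshold as lower, but of the 17 alternatives tried the call of *Flvcr1* ended in 5 and that of *Hp* in 9. *Lrp1* (0.08, adjusted p = 0.284), *Hpx* (-1.32, adjusted p = 0.185, at most 20 counts) and *Abcg2* (0.36, adjusted p = 0.0675) did not pass, and *Abcg2* passed without endogenous replicate 1 (adjusted p = 0.0265).

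Of the regulators, *Spic*, a transcription factor that macrophages of the splenic red pulp require and that heme induces, rose by 9.73 (SE 0.43, adjusted p = 1.11e-06). It had 9236, 9274 and 8559 counts in the MSC-derived libraries and 0, 18 and 12 in the endogenous libraries. *Nfe2l2*, which encodes NRF2, an activator of *Hmox1* and of the ferritin genes, and its inhibitor *Keap1* rose by 0.35 and 0.32 with scaled counts, and both were below 0 on log2(TPM + 1). The call of *Keap1* ended in 7 further alternatives. *Bach1*, the heme-sensing repressor of *Hmox1*, was at -0.01 (SE 0.10, adjusted p = 0.940). *Slc25a28*, which encodes an iron carrier of mitochondria, was at 0.30 (SE 0.16, adjusted p = 0.142), and passed without endogenous replicate 1 (adjusted p = 0.00372).

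**Figure D5:**
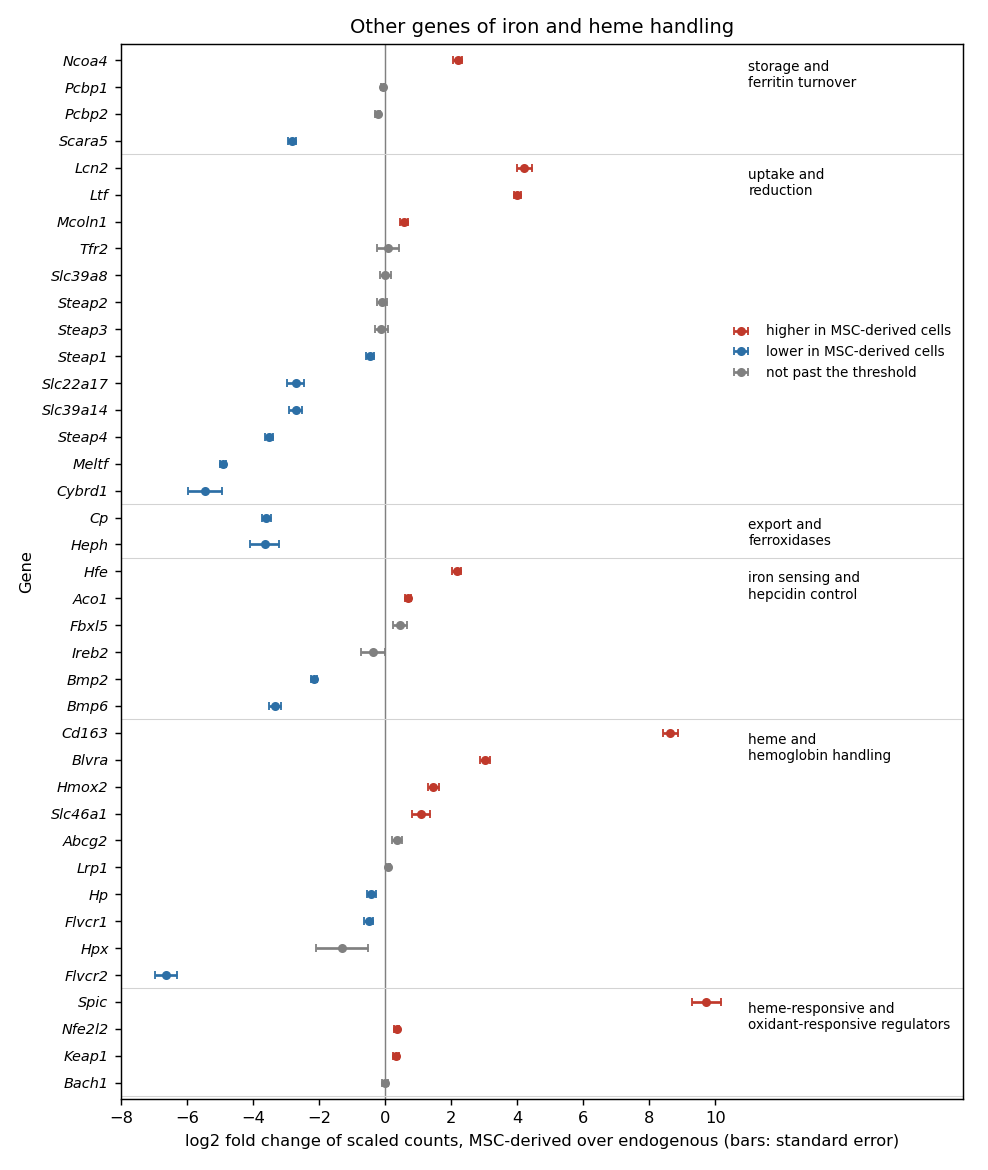
Log2 fold change of scaled counts, MSC-derived over endogenous, for 39 of the other iron and heme genes tested, by role and without the mitochondrial ones, with bars of 1 standard error and colour by the edgeR call. Values run from -6.64 for *Flvcr2* to 9.73 for *Spic*, with 13 of these genes higher, 14 lower and 12 not past the threshold.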

How the data were processed

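Tomato+ cells of 2 groups, 3 libraries each, were sequenced in bulk. SOAPnuke for read filtering, HISAT2 and Bowtie2 for alignment and RSEM for quantification were used by the authors. The submitters' processing notes give Bowtie2 2.2.5, RSEM 1.2.12 and the build mm9, while the study's methods name other versions of both tools. Deposited per gene were the unnormalized expected count, made by the authors with RSEM, and FPKM and TPM, which allow for length and library size. A deposited signal of scaled counts and 8 columns of group means were not used. The 18 columns used were mapped by name, which left 0 single-sample columns without a sample.

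Expected counts were rounded, which changed 20.6% of values, and tested with edgeR 4.0.16 in R 4.3.3 (filterByExpr, TMM, quasi-likelihood test, no block, Benjamini-Hochberg adjustment over 14289 genes, threshold 0.05). The procedure was tested on simulated data. The members, the gene lists and the marker lists were chosen with earlier results of these data known. Named were all members; *Aco1*, *Ireb2*, *Fbxl5*, *Ncoa4*, *Hmox2* and *Blvra*; per role, the called gene with the largest change in each direction; all genes that did not pass; and genes left out by the filter. Alternatives were DESeq2 1.42.0, other scalings and filters, limma 3.58.1 on log2(FPKM + 1), log2(FPKM + 0.1) and log2(TPM + 1), the replicate number as a block, and each library left out. The 2 groups came from different mice, and whether each library of a group is a single mouse is not stated. Hairpins were read from GENCODE M21 transcripts (GRCm38) by gene name, and no coordinate of the deposited build was used. Some results on genes of the list are not reported here. Figures were drawn with matplotlib 3.10.9.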

Additional observations from a re-analysis of the deposited data

How the results depend on the processing

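Every count of calls (all genes, other iron genes, marker lists) stayed within 1.5 times its value under the 17 alternatives, and the marker counts were the same in all of them. The other iron genes called ran from 13 to 21 higher and from 11 to 21 lower. Leaving out each library gave 17 to 21 higher and 11 to 18 lower, and 3672 to 5563 higher and 3761 to 5686 lower of all genes. Of the members, *Tfrc* ran from 0.026 to 0.604 and *Slc11a2* from -0.457 to 0.085 in log2 fold change. The log2(TPM + 1) scale, added after seeing the data, moved the median of all genes by -0.327 and the share of calls that were higher from 50.8% to 34.4%. On it *Lrp1* (-0.35), *Nfe2l2* (-0.091) and *Keap1* (-0.080) turned direction. FPKM summed to 808701 to 813572 in MSC-derived libraries and to 504768 to 573603 in endogenous ones, whereas TPM sums to the same total. The part of this in the turned values was not tested. The median moved by 0.116 with library totals, by 0.149 with log2(FPKM + 0.1) and by -0.108 with DESeq2. Of 764 values recomputed for single other iron genes, 707 kept direction and side of the threshold, 26 lost the call, 28 gained one and 3 turned. *Hp* lost it in 9 alternatives, *Keap1* in 7, *Flvcr1* in 5, *Steap1* in 2 and *Aco1* and *Mcoln1* in 1 each. Same-numbered libraries of the groups deviated together by correlations of 0.0129, 0.00221 and 0.0178, and differently numbered ones by -0.0145 to 0.00824. All were small, so no pairing was seen, but with 3 libraries per group the check cannot exclude one. With the replicate block, 17 other iron genes were higher and 13 lower.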

Other observations

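The genes whose levels most resembled those of *Slc40a1* and *Trf* were found by the distance between patterns, taken as the root mean square difference of log2 CPM over the 6 libraries after centring each gene on its mean. Values near 0 mean nearly parallel patterns. For *Slc40a1* the nearest 5 were *Ctss* (0.0602), *Pira2* (0.124), *Cd83* (0.144), *Cd68* (0.219) and *Rnaset2b* (0.229). Their log2 fold changes ran from 6.38 to 6.72, beside 6.54 for *Slc40a1*, so the distance picked genes with a like difference between the groups. *Cd68* is on the macrophage list above. For *Trf* the nearest were *Syngr2* (0.0442), *Sh3bgrl3* (0.0552), *Por* (0.0571), *Slc35f6* (0.0601) and *Engase* (0.0616). The 6 libraries form only 2 groups, so this likeness is a description and nothing is said of shared function.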
